A study of Mus musculus with 32 samples.

Results

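RNA polymerase II (Pol II) occupancy in mouse organs was followed over 8 genes of the thick ascending limb and the distal tubule of the kidney, Umod, Egf, Slc12a1, Slc12a3, Cldn10, Cldn16, Calb1 and Wnk1. They were chosen by symbol, and all 8 were found among the 27179 genes of the table. The study immunoprecipitated chromatin of brain, heart, kidney and liver with an antibody against the Pol II C-terminal domain and sequenced it, next to input chromatin. Each organ was either flash frozen, with cores crosslinked in 1% formaldehyde for 30 min, or formalin-fixed (10%) and paraffin-embedded (FFPE), with sections deparaffinized and heated to 95 °C for 20 min. Preservation and extraction therefore differ together. The labels name no strain, sex, age or number of mice. They list 32 libraries, 16 of them Pol II, with 2 for each organ and preservation, and the table has 1 column for each organ and preservation, called a profile here. Input values were not analysed here. Per the labels, the first and second replicates carry different dates and kit names, and the table does not separate them.

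The thick ascending limb reabsorbs sodium, potassium and chloride without water and so dilutes the urine. The distal convoluted tubule that follows it reabsorbs further sodium chloride and adjusts calcium and magnesium. Umod encodes uromodulin, the most abundant protein of normal human urine, made by the thick ascending limb. Egf encodes the membrane-bound precursor of epidermal growth factor, made by the thick ascending limb and distal convoluted tubule. Slc12a1 encodes NKCC2, the sodium-potassium-chloride cotransporter blocked by furosemide, and Slc12a3 encodes NCC, the sodium-chloride cotransporter of the distal convoluted tubule blocked by thiazides. Cldn10 and Cldn16 encode claudins, which are tight junction proteins. Cldn16 and a form of Cldn10 let cations pass between cells of the thick ascending limb. Calb1 encodes calbindin-D28k, a calcium-binding protein of the late distal tubule that is also known from Purkinje neurons of the cerebellum. Wnk1 encodes a kinase that acts upstream of both cotransporters and is made in most tissues. On GRCm38.p6, the build also called mm10, RefSeq places Umod on chromosome 7 (119462708 to 119479262), Egf on 3 (129677574 to 129755322), Slc12a1 on 2 (125152510 to 125230002), Slc12a3 on 8 (94329109 to 94366222), Cldn10 on 14 (118787871 to 118874525), Cldn16 on 16 (26463135 to 26482765), Calb1 on 4 (15881264 to 15906709) and Wnk1 on 6 (119923969 to 120038695). All are protein-coding, and reads were taken per gene. A short kidney form of Wnk1 starts inside the gene, and gene-level reads do not separate it. Cldn10 and Egf have 2 listed starts each, and forms made from them are not separated either.

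The DNA just upstream of the annotated starts is shown for 6 genes, the 5 that rose in kidney (below) and Wnk1, whose values were spread over all organs. Sequences are from RefSeq on the same build, in the 5′ to 3′ direction of the gene. They end at the base before the annotated gene, and only the bases that the promoter table gives outside the gene are shown. For Cldn10 and Egf, with 2 listed starts each, only the most upstream start was used, here and in the counts below. Capitals mark CpG dinucleotides, which are dense at the promoters of most widely used genes.
Umod (chr7:119479263-119479512, minus strand): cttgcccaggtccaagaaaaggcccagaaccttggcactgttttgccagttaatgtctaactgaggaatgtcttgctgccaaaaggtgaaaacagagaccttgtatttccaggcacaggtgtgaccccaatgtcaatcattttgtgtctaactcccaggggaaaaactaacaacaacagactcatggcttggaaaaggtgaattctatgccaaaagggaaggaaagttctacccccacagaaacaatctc
Egf (chr3:129755323-129755572, minus strand): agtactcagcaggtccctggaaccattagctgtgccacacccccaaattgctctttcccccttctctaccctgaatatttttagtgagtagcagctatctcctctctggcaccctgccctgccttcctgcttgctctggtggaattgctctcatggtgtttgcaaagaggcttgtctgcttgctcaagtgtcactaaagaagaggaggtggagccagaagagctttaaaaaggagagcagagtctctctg
Slc12a1 (chr2:125152350-125152509, plus strand): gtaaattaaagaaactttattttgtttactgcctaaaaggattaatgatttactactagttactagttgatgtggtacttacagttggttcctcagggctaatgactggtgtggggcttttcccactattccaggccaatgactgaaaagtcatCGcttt
Slc12a3 (chr8:94328958-94329108, plus strand): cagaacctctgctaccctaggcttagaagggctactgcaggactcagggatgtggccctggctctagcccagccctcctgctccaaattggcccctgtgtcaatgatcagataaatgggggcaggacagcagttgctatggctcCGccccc
Cldn10 (chr14:118787621-118787870, plus strand): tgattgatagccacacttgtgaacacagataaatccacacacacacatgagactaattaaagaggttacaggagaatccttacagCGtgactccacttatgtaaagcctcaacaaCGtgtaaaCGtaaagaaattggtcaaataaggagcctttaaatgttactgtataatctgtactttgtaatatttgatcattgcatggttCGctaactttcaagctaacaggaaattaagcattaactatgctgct
Wnk1 (chr6:120038696-120038905, minus strand): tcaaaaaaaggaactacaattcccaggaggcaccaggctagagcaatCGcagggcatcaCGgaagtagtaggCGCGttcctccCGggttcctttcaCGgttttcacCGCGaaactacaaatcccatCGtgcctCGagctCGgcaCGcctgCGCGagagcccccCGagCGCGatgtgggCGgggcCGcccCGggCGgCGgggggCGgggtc

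The promoter table matched 7 of the 8 genes, all but Calb1. The TATA motif TATAAA and AAGGTCA, a motif of nuclear receptors, were in none of the 7 windows on either strand. Of all 250-base windows, 12.4% held TATAAA and 4.08% held AAGGTCA. The absence of these letters in a window says nothing of binding there. The Wnk1 window had 23 CpG dinucleotides in its 210 bases, where the median over all windows of that length was 5, and 64.8% G and C. The windows of Umod and Egf had 0 CpG each, that of Cldn10 had 4 and that of Cldn16 had 5, where the median over windows of 250 bases was 6. The shorter windows of Slc12a1 and Slc12a3 had 1 each, where the median was 4. Slc12a1 and Cldn10 were AT-rich, with 37.5% and 36.0% G and C, below which lay 7.52% and 5.81% of all windows.

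The profiles held between 864816 (FFPE liver) and 2178329 (frozen liver) reads in genes, and the median gene had 16 to 39 reads. Values are log2 counts per gene with 0.5 reads added, scaled to library size (CPM), as deposited by the authors. The organ labels were checked against marker genes. Summed over 12 proximal tubule genes, the kidney profiles had 1507 (FFPE) and 1976 (frozen) CPM, and the other profiles 371 to 666. The brain profiles led for 8 neuron genes (733 and 776, elsewhere 127 to 198), the heart profiles for 8 cardiomyocyte genes (3186 and 6939, elsewhere 192 to 382) and the liver profiles for 8 hepatocyte genes (2024 and 9501, elsewhere 76.5 to 157). Mitochondrial genes took 19.2% of reads in FFPE kidney and 7.77% in frozen kidney. Olfactory and vomeronasal receptor genes, which these organs are not known to use, had median log2 values of 1.59 to 2.31. This is the level of reads over these receptors and not a floor for every gene. Outside the organ they mark, Myh6 (heart) stood at 4.94 to 5.90, Cps1 (liver) at 4.31 to 5.11 and Fgb (liver) at 0.91 to 3.35. A value above the receptors is therefore not read as Pol II use of a gene. Values rose by only 0.13 to 0.27 for each doubling of the genomic span of a gene, across genes of 10 kb or more, so span is not a usable length for these reads. Levels are therefore compared between organs for each gene and not between genes.

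**Figure D1:**
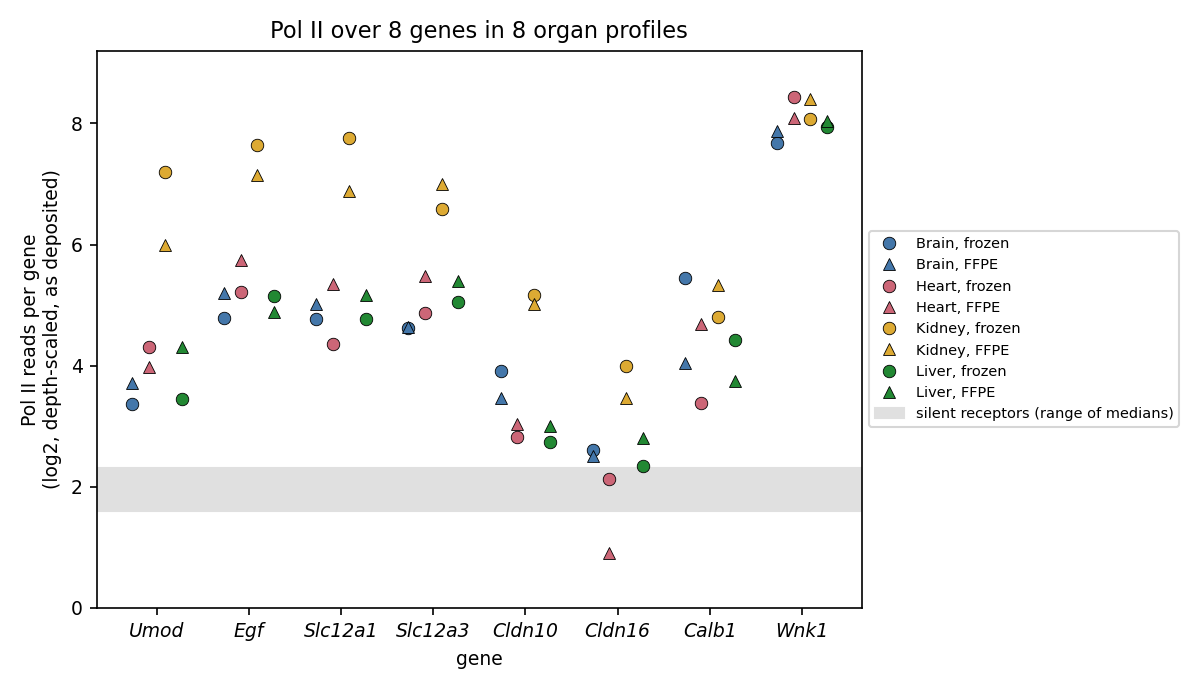
Deposited log2 values (vertical axis, depth-scaled Pol II reads per gene) of the 8 genes in the 8 profiles, with circles for frozen and triangles for FFPE tissue and 1 colour for each organ. For 6 genes both kidney profiles lie above the other 6, whereas Calb1 and Wnk1 overlap. The grey band is the range of medians of silent receptor genes and not a floor for every gene.

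Umod stood at 7.19 in frozen kidney and 5.99 in FFPE kidney. In the other organs it was at 3.36 and 3.71 in frozen and FFPE brain, 4.31 and 3.97 in heart, and 3.45 and 4.31 in liver. Both kidney profiles were above all others, and liver overlapped both heart and brain. The reads behind these values were 280 and 89 in kidney and 12 to 29 elsewhere. Umod was higher in kidney by a log2 fold of 2.74 ± 0.38 (standard error, SE, 2 against 6 profiles, limma, adjusted p = 0.00026).

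Slc12a1 stood at 7.77 in frozen and 6.88 in FFPE kidney. It was at 4.76 and 5.01 in frozen and FFPE brain, 4.35 and 5.35 in heart, and 4.78 and 5.17 in liver. Frozen kidney was the highest profile and had 417 reads, while FFPE kidney had 166 and the others 30 to 65. The other organs overlapped each other. The fold of kidney over the other organs was 2.42 ± 0.30 (adjusted p = 7.35e-05).

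Egf stood at 7.64 in frozen and 7.14 in FFPE kidney. It was at 4.79 and 5.20 in frozen and FFPE brain, 5.22 and 5.74 in heart, and 5.15 and 4.88 in liver. Kidney was again separate from all other profiles, and heart lay above liver without overlap. Its fold was 2.23 ± 0.26 and its adjusted p the lowest of the 8 genes, 3.75e-05.

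The claudins Cldn10 and Cldn16 had fewer reads. Cldn10 stood at 5.16 in frozen and 5.01 in FFPE kidney, at 3.91 and 3.47 in brain, 2.82 and 3.03 in heart, and 2.73 and 3.01 in liver. The kidney profiles differed by 0.15 only, brain came second without overlapping heart or liver, and the reads were 68 and 45 in kidney against 6 to 28 elsewhere. Cldn10 was higher in kidney by 1.92 ± 0.46 (adjusted p = 0.032).

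Cldn16 stood at 3.99 in frozen and 3.46 in FFPE kidney, from 30 and 15 reads. In the other profiles it had 1 to 11 reads and values from 0.91 (FFPE heart) to 2.80 (FFPE liver), with a median of 2.42, close to the level of silent receptors. Although both kidney profiles were the highest, the fold of 1.51 ± 0.63 did not pass the threshold (adjusted p = 0.36, 95% interval 0.20 to 2.83).

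Among the genes of the distal convoluted tubule, Slc12a3 stood at 6.58 in frozen and 7.0 in FFPE kidney, so that FFPE was the higher of the pair. It was at 4.62 and 4.64 in frozen and FFPE brain, 4.87 and 5.48 in heart, and 5.06 and 5.41 in liver. Kidney did not overlap the others, and brain was the lowest organ. Its fold was 1.78 ± 0.26 (adjusted p = 0.00044).

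Calb1 stood at 5.44 in frozen brain, its highest value, and at 4.05 in FFPE brain. In kidney it was at 4.80 (frozen) and 5.32 (FFPE), in heart at 3.38 and 4.69, and in liver at 4.43 and 3.75. By organ mean the order was kidney, brain, liver and heart, and each organ overlapped the next. The fold of kidney over the others was 0.78 ± 0.43 (adjusted p = 0.56, 95% interval -0.11 to 1.66), and against brain alone 0.32 ± 0.52.

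Wnk1 had between 217 and 515 reads in every profile. It stood at 8.07 in frozen and 8.41 in FFPE kidney, at 8.43 and 8.09 in heart, 7.95 and 8.04 in liver, and 7.68 and 7.87 in brain. Kidney and heart overlapped, and liver and brain lay below them in that order. The fold of kidney over the others was 0.23 ± 0.22 (adjusted p = 0.80), with a 95% interval of -0.22 to 0.68 that leaves out the folds fitted for the cotransporters.

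Thus Umod, Egf, Slc12a1, Slc12a3 and Cldn10, 5 of the 8, rose in kidney at an adjusted p under 0.05 (limma, Benjamini-Hochberg over 26758 genes tested), where 0.919% of all genes did. The median log2 fold of the 8 was 1.85, against -0.0025 over all genes tested. Both kidney profiles were above all others for 6 of 8 genes, against 4.92% of all genes. In bulk tissue, fewer cells of a type and less Pol II per cell cannot be told apart. Without the frozen kidney profile, none of the 5 passed, with folds of 1.99 for Umod (adjusted p = 0.26), 1.87 for Egf (0.098), 1.71 for Slc12a1 (0.14), 1.83 for Slc12a3 (0.10) and 1.84 for Cldn10 (0.50). Without the FFPE kidney profile Umod, Egf and Slc12a1 passed, and Slc12a3 (1.73, adjusted p = 0.11) and Cldn10 (2.01, adjusted p = 0.48) did not. Cldn10 also missed the threshold without the FFPE brain (adjusted p = 0.13), frozen brain (0.084) or frozen heart profile (0.058), without the preservation term (0.052) and without the filter on low values (0.054). With a single prior variance for all genes in place of a trend with level, no gene passed in any comparison, and the adjusted p of the 5 was 0.32.

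**Figure D2:**
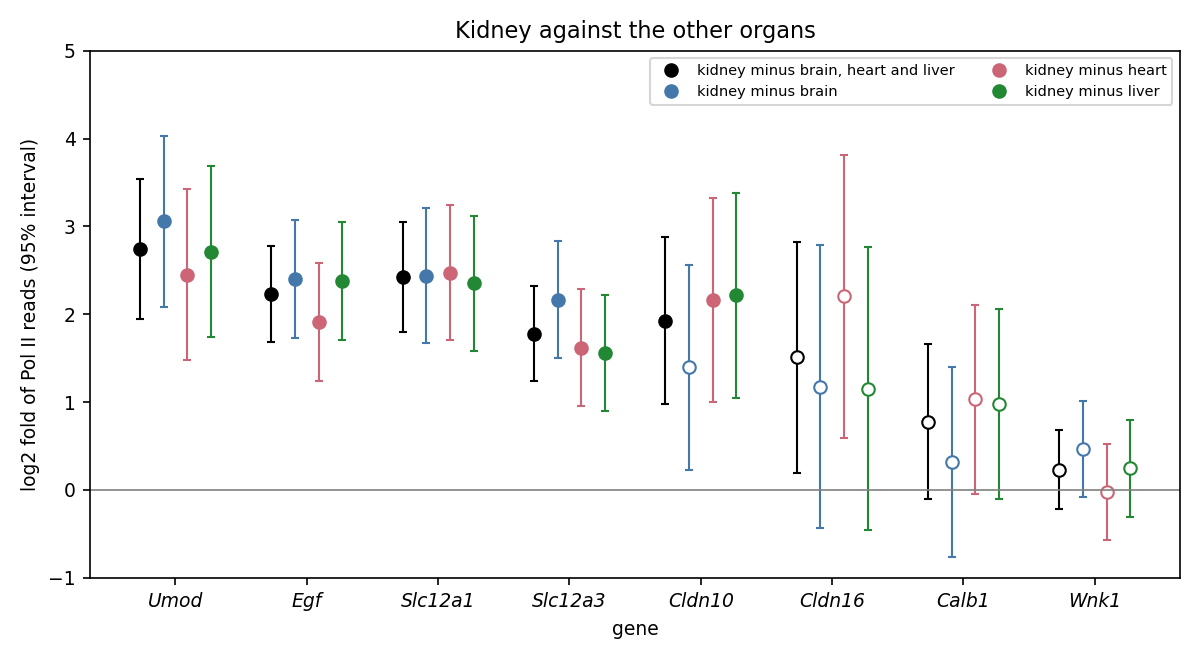
Log2 folds of kidney over the mean of the other organs (black) and over brain, heart and liver separately, from limma, with 95% intervals; filled points have an adjusted p under 0.05. Umod, Egf, Slc12a1 and Slc12a3 are filled throughout, Cldn10 is open against brain, and Cldn16, Calb1 and Wnk1 are open.

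Kidney was also set against each organ in turn. Umod, Egf, Slc12a1 and Slc12a3 passed against brain, heart and liver alike. The fold of Umod was 3.06 ± 0.47 against brain, 2.45 ± 0.47 against heart and 2.71 ± 0.47 against liver. Slc12a1 was nearly level over the comparisons, at 2.44, 2.47 and 2.35 (SE 0.37 each). Slc12a3 had 2.16 against brain, 1.62 against heart and 1.56 against liver (SE 0.32 each). Cldn10 passed against heart (2.16 ± 0.56, adjusted p = 0.039) and liver (2.21 ± 0.56, adjusted p = 0.024). Against brain its fold was 1.40 ± 0.56 (adjusted p = 0.23, 95% interval 0.23 to 2.56). Over all genes, 1.92% were called higher in kidney than in brain, 1.25% higher than in heart and 1.43% higher than in liver. These comparisons share the kidney profiles. Leaving out a profile changed the number of members called. Against heart none passed when frozen heart or frozen kidney was left out, 2 when FFPE heart was and 3 when FFPE kidney was. Against liver 1 passed when frozen kidney was left out and 3 when FFPE kidney was. Against brain 2 passed when frozen kidney was left out.

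Further genes of the same nephron segments were taken as lists, with values from the same limma fit. Of 10 other thick ascending limb genes 5 rose in kidney, with a list median of 1.54. Among these were Bsnd, the barttin subunit of kidney chloride channels (2.34 ± 0.44), Kcnj1, the potassium channel ROMK (2.20 ± 0.34), the transcription factor Irx1 (2.19 ± 0.38) and the calcium-sensing receptor Casr (1.92 ± 0.39). Not past the threshold were Irx2 (1.33 ± 0.44) and the prostaglandin receptor Ptger3 (1.28 ± 0.48). The lowest fold of the list was negative, at -0.64 ± 0.45, and did not pass either.

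Of 10 other distal convoluted tubule genes 5 rose, with a list median of 1.09. Fxyd2, a regulator of the sodium pump, was higher by 3.56 ± 0.68, the kallikrein Klk1 by 2.74 ± 0.62, and the potassium channel Kcnj16 by 2.67 ± 0.38. The sodium pump subunit Atp1b1 was higher by 0.98 ± 0.22. Fxyd2 and Atp1b1 are used along most of the nephron. Emx1 (1.32 ± 0.54) and the potassium channel Kcnj10 (1.00 ± 0.27) did not pass. Pvalb, the calcium-binding parvalbumin of the early distal convoluted tubule, had 6 reads in frozen and 9 in FFPE kidney. It had 29 and 17 reads in frozen and FFPE brain, and its fold was -0.71 ± 0.65. Cnnm2 was at -0.18 ± 0.23, and neither passed.

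Of 11 genes of calcium and sodium handling in the connecting tubule, where Calb1 belongs, 2 rose. They were the vitamin D receptor Vdr (2.46 ± 0.32) and Kl, the coreceptor klotho (1.89 ± 0.27). Another calcium buffer of mouse distal tubule, S100g, had 10 reads in frozen and 16 in FFPE kidney and a fold of 2.02 ± 0.80 that did not pass. Scnn1b, a subunit of the epithelial sodium channel, was at 1.29 ± 0.39 and did not pass.

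Of 10 transcription factors of nephron epithelium 5 rose, among them Pax8 (3.06 ± 0.35), Tfcp2l1 (2.64 ± 0.25), Pax2 (2.20 ± 0.32) and Tfap2b (1.76 ± 0.29). Tfap2b is required for the distal convoluted tubule. Tfcp2l1 stood at 8.32 in frozen and 8.39 in FFPE kidney and at 4.80 to 6.28 elsewhere. Emx2 (1.45 ± 0.41) and Esrrg (0.81 ± 0.28) did not pass.

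Pathways and families around the 8 genes were read in the same way. At an unadjusted p below 0.05 in either direction stood 10.6% of all genes, against which the unadjusted counts that follow are to be read. None of 11 genes of the WNK pathway passed, and 1 had an unadjusted p below 0.05, Wnk4, the kinase mutated with Wnk1 in familial hypertension with high potassium (0.84 ± 0.22, adjusted p = 0.065). Its values were 7.29 and 7.30 in kidney and 5.90 to 7.02 elsewhere. The list median was 0.08, and Wnk2 was at -0.47 ± 0.28. None of the 7 other SLC12 transporters passed, and 2 had an unadjusted p below 0.05, both with a negative fold. Slc12a2, the widespread relative of Slc12a1, was at -0.85 ± 0.25, and Slc12a5, the neuronal potassium-chloride cotransporter, at -0.85 ± 0.24, with its highest values in brain (7.84 and 7.80).

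Of 21 other claudins 2 rose, Cldn8 of the distal nephron (2.46 ± 0.55) and Cldn2 of the proximal tubule (2.15 ± 0.47). The list median was 0.64, and Cldn4 (1.44 ± 0.57) and Cldn9 (1.02 ± 0.66) did not pass. Cldn19, the partner of Cldn16 in the thick ascending limb, was at 0.74 ± 0.30 and stood at 6.25 in FFPE heart, within its kidney range of 5.82 to 6.34. Of 10 receptors and ligands of the EGF family, other than Egf itself, Erbb2 rose (1.33 ± 0.25), while the EGF receptor Egfr was at -0.31 ± 0.24. Among 4 relatives and partners of uromodulin none passed, with 1 unadjusted p below 0.05, that of Gp2 (1.23 ± 0.40). Hpn, the protease that releases uromodulin, was highest in liver (7.36 frozen and 6.57 FFPE, kidney 5.65 and 5.32). Of 4 other calcium buffers none passed, with 1 unadjusted p below 0.05.

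Other nephron segments gave a frame for these counts. Of 12 proximal tubule genes 7 rose, with a median of 1.51, led by Kap (4.43 ± 0.66) and the phosphate transporter Slc34a1 (3.51 ± 0.28). Of 11 collecting duct genes none passed (4 with an unadjusted p below 0.05, median 0.69), nor did any of 5 podocyte genes (2 with an unadjusted p below 0.05, median 0.59). Whether lists differ from each other was not tested. None of 6 endothelial and none of 6 immune genes passed, and none of them had an unadjusted p below 0.05. Lower in kidney, as were 0.456% of all genes, were 1 of 8 neuron genes (Snap25), 3 of 8 cardiomyocyte genes (Myh6, Pln and Ryr2) and 3 of 8 hepatocyte genes (Tat, Alb and Cps1). Of 6 genes of the cerebellum 1 was lower, Car8 (-1.08 ± 0.27), but brain was not where Car8 was highest. It stood at 5.58 and 5.77 in frozen and FFPE brain, 5.72 and 6.36 in heart, and 7.02 and 6.16 in liver. Against brain alone its fold was -0.65 ± 0.34 (limma, adjusted p = 0.425). Cbln1, highest in brain, was at -0.11 ± 0.31 against the other organs and -2.07 ± 0.39 against brain. The Purkinje gene Pcp2 stood at 3.03 and 2.37 in brain, where Calb1 had its highest profile, and at 2.82 and 3.63 in kidney.

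**Figure D3:**
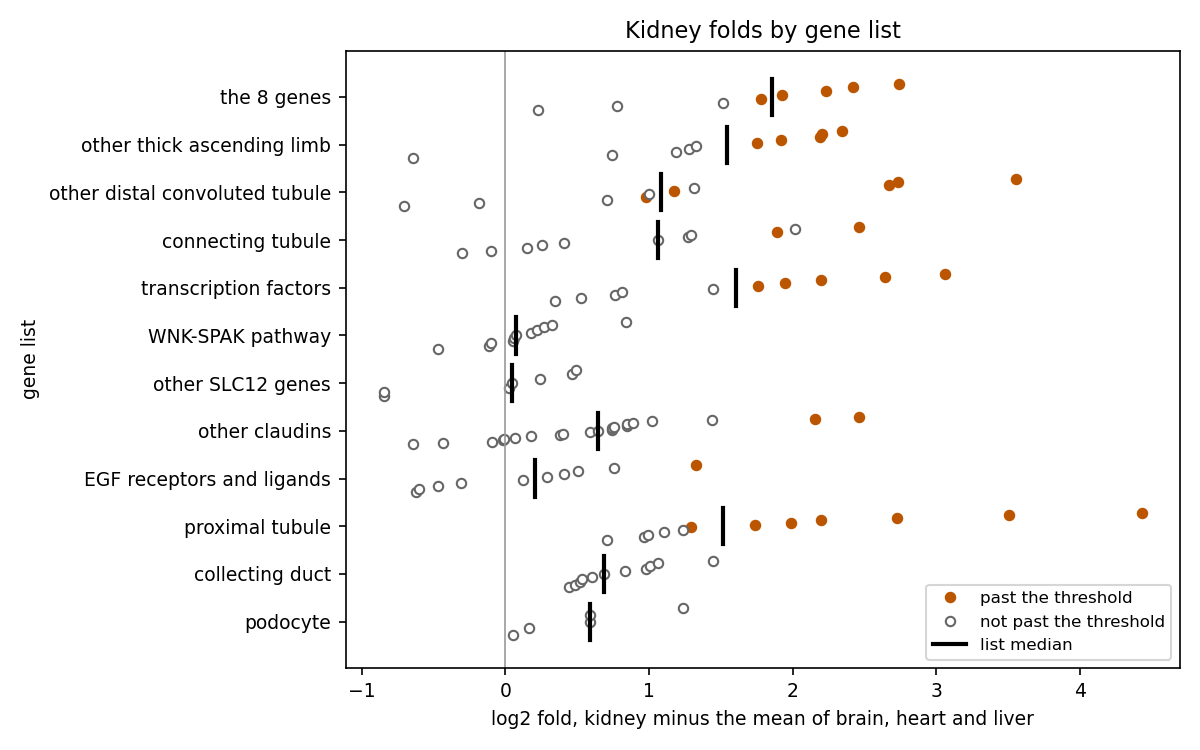
Log2 fold of kidney over the mean of brain, heart and liver (horizontal axis) for each gene of 12 lists, filled where the adjusted p was under 0.05, with the list median as a bar. The 8 genes have a median of 1.85, other thick ascending limb genes 1.54 and transcription factors 1.60, while the WNK pathway and other SLC12 genes lie around 0.

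Genes beside the 8 were read as a check on the locus. Of 13 genes that overlapped a member or were its nearest neighbour within 100 kb and had a row, 1 rose in kidney. This was Dzip1, whose end lies 992 bases from that of Cldn10, at 1.46 ± 0.26 (adjusted p = 0.0035), with 6.42 and 6.74 in kidney and 4.45 to 5.63 elsewhere. Gp2 lies 3436 bases from Umod and is its close relative. The noncoding gene 6330410L21Rik overlaps the start of Egf (1.49 ± 0.39, adjusted p = 0.055), and since the strand of counting is not given, their reads cannot be told apart where they overlap. Tmem207, 21028 bases from Cldn16, was at 1.55 ± 0.55 and was not called. Nup93, which ends 1009 bases before Slc12a3, was at -0.16 ± 0.31, and Dut and Ctxn2 beside Slc12a1 were at -0.32 ± 0.29 and -0.94 ± 0.81.

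The genes whose pattern over the 8 profiles was most like that of a called member were found by Pearson's r among 22323 genes whose log2 values averaged 2 or more. Such an r is a description, since profiles of an organ resemble each other and all genes share the same libraries. For Slc12a1 they were Cdh16 (r = 0.984), the kidney-specific cadherin, Nat8f6 (0.976) and Tnfsf15 (0.970). For Umod they were Tnfsf15 (0.975), Kap (0.967) and Pfn3 (0.965), a gene that overlaps Slc34a1 in RefSeq. For Egf they were Plod2 (0.979) and Ndrg1 (0.978), for Slc12a3 Gng12 (0.983), Btnl10 (0.969) and Hoxb3 (0.960), and for Cldn10 P3h2 (0.982), Car12 (0.980) and Dnase1 (0.973). Among the members, Umod, Egf, Slc12a1 and Slc12a3 had r from 0.886 to 0.955 with each other. Calb1 and Wnk1 had r of -0.286.

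Preservation was compared over all organs with limma (4 against 4 profiles). None of the 8 genes was called, where 0.576% of all genes were. None had an unadjusted p below 0.05, where 9.32% of all genes did. The folds of FFPE over frozen ran from -0.34 ± 0.55 (Cldn16) to 0.35 ± 0.23 (Slc12a3). In frozen tissue alone the kidney stood above the mean of the other organs by 3.49 for Umod, 3.14 for Slc12a1, 2.59 for Egf, 2.01 for Cldn10, 1.73 for Slc12a3, 1.64 for Cldn16, 0.39 for Calb1 and 0.05 for Wnk1. In FFPE tissue alone these differences were, in the same order, 1.99, 1.71, 1.87, 1.84, 1.83, 1.39, 1.17 and 0.41. Umod, Slc12a1, Egf, Cldn10 and Cldn16 had the smaller difference in FFPE, and Slc12a3, Calb1 and Wnk1 the larger. They set 1 kidney profile against 3 others and equal the folds of the fits above that left out the other kidney profile.

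Within kidney, FFPE and frozen tissue have 1 profile each, and the intervals that follow (exact binomial, 95%) cover counting error only. Reads may include copies of the same fragment, which these intervals do not cover. Umod had 0.432 times as many reads in FFPE as in frozen kidney after scaling (0.336 to 0.550), Slc12a1 0.541 times (0.449 to 0.649) and Egf 0.708 times (0.593 to 0.843). Slc12a3 had 1.34 times as many (1.08 to 1.65) and Wnk1 1.26 times (1.11 to 1.43). The intervals of Cldn16 (0.679, 0.340 to 1.30), Cldn10 (0.899, 0.603 to 1.33) and Calb1 (1.44, 0.969 to 2.13) included 1. So 3 of 8 were below 1 and 2 of 8 above it, where 11.4% and 11.3% of all genes were. Among genes with at least 100 reads over both kidney profiles, 12.1% were below and 17.4% above.

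In the other organs Slc12a1 was not lower in FFPE, with ratios of 1.19 in brain, 2.0 in heart and 1.30 in liver, from 30 to 65 reads a profile. Umod had ratios of 1.28, 0.774 and 1.81. The difference between the FFPE effect in kidney and in the other organs was fitted with limma (1 value against 3, the lone value assumed to vary like the others). It was -1.43 ± 0.54 for Slc12a1 (unadjusted p = 0.017) and -1.50 ± 0.72 for Umod (unadjusted p = 0.054). No gene was called in this fit (0% of all genes), 1026 genes (3.83%) had an unadjusted p below 0.05, and the adjusted p of Slc12a1 and Umod was 0.9998.

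Outside kidney, intervals left out 1 for Calb1, Slc12a1 and Wnk1. Calb1 in brain had 82 reads in frozen and 33 in FFPE tissue, a ratio of 0.376 (0.243 to 0.570). In heart its ratio was 2.50 (1.21 to 5.24), from 15 and 20 reads. Also in heart, Slc12a1 had a ratio of 2.0 (1.17 to 3.40). Wnk1 had 0.789 there (0.670 to 0.926), opposite in direction to its kidney ratio. The shares of all genes with such intervals in brain and heart are not given here.

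**Figure D4:**
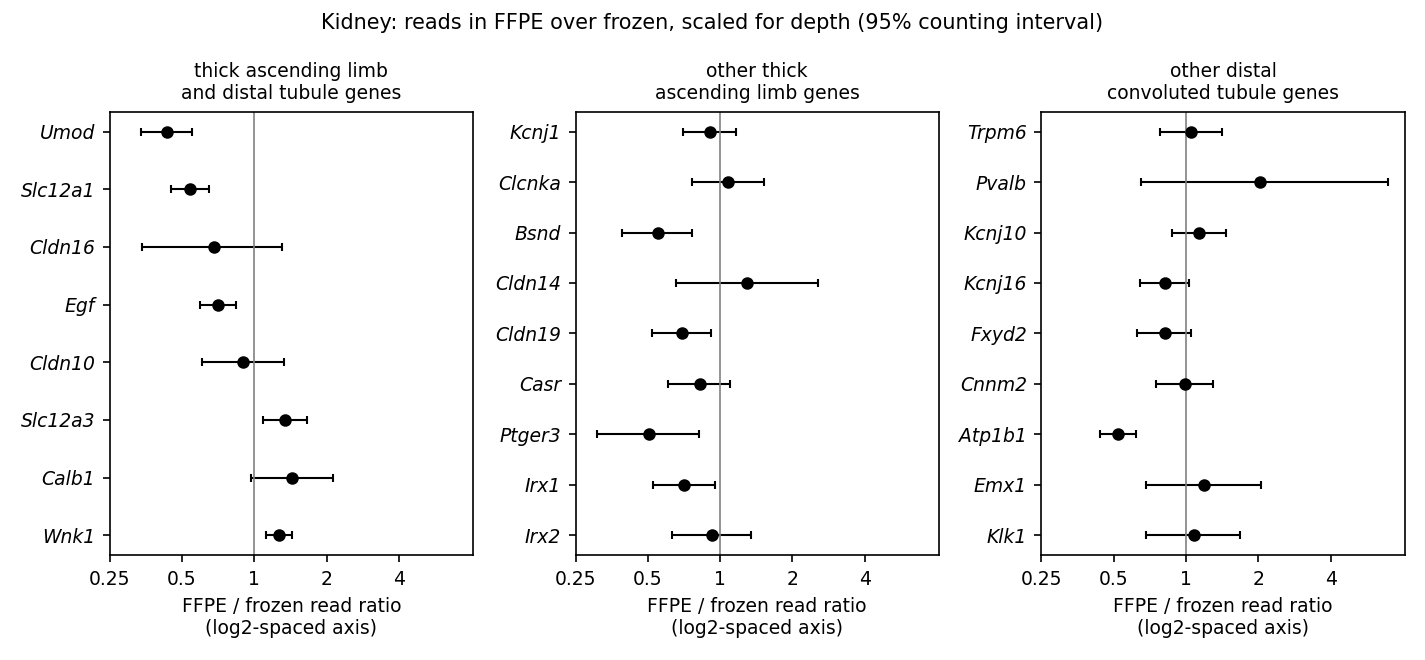
Ratio of depth-scaled reads in FFPE over frozen kidney (horizontal log axis) for the 8 genes, 9 other thick ascending limb genes and 9 other distal convoluted tubule genes, with 95% exact binomial intervals that cover counting error only. Umod, Slc12a1 and Egf lie below 1, while Slc12a3 and Wnk1 lie above it. Below 1 are also Bsnd, Cldn19, Ptger3 and Irx1, and Atp1b1 among the distal convoluted tubule genes.

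Of the 10 other thick ascending limb genes, 4 had an interval below 1 and none above it. Over all genes these shares were 11.4% and 11.3%, against which the counts that follow are also to be read. They were Ptger3 (0.507), Bsnd (0.550), Cldn19 (0.693) and Irx1 (0.710), while the interval of Kcnj1 (0.906) included 1. Of the 10 other distal convoluted tubule genes, 2 were below 1, among them Atp1b1 (0.521), and none above it. Atp1b1 was also called lower in FFPE over all organs (-0.95 ± 0.19, limma, adjusted p = 0.016), and its effect in kidney minus that in the other organs was 0.02 ± 0.44. Of the 12 proximal tubule genes 6 were below 1 and none above it, with Kap at 0.223 and Slc34a1 at 0.671. Of the 11 WNK pathway genes 1 was below 1 and 4 above. Of 11 collecting duct genes 2 were below and 3 above. Lists outside the tubule also had genes below 1 and none above, with 2 of 6 immune, 2 of 6 endothelial, 2 of 8 cardiomyocyte and 1 of 8 neuron genes. Of 8 hepatocyte genes 1 was above and none below, and of 5 podocyte genes none was either. Whether the lists differ in this was not tested. The share of mitochondrial reads also differed between the kidney profiles (above), and its part in these ratios was not tested.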

How the data were processed

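Pol II reads per gene were analysed in brain, heart, kidney and liver, frozen and FFPE. The submitters' processing notes name Bowtie2, mm10, featureCounts and limma. Not given in the sources used here: tool versions, strand of counting and whether a profile is 1 library or both of a group. What the authors deposited are log2 values, which match the scale of limma's voom function. Taking the lowest value of a profile as 0 reads, 100% of values came out as whole reads (relative tolerance 1e-06), and reads and totals were taken from there. The table was taken to hold Pol II libraries from its title.

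Tested were the 26758 genes that reached a log2 value of 0 in 2 or more profiles. The model, fitted in limma 3.58.1 (R 4.3.3) with trended empirical Bayes, had organ and preservation as terms (calls at a Benjamini-Hochberg adjusted p under 0.05), with 3 residual and 19.4 prior degrees of freedom. Organ contrasts treat the frozen and FFPE profile of an organ as its 2 measurements. Nothing says that these came from separate mice. The p-values thus cover the spread between profiles, which may be technical. On simulated reads for kidney against the others (26746 genes), 26% of 100 genes changed by a log2 fold of 1 and 99% of 100 changed by 2 were recovered, with 9 false calls. The simulated reads had an assumed spread, the same for all genes, no preservation effect and no other organ differences. These rates are therefore not the power or error rate of the fit to the real profiles. The changed genes had a mean log2 of at least 4, which Cldn10 and Cldn16 do not reach. Positions came from RefSeq (GRCm38.p6) by Entrez number, matching 25275 genes.

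The members and gene lists were chosen with earlier results of these data known. All 8 members are named. From each list the text names up to 4 called genes by fold and up to 2 others; names beyond that were chosen after their values were seen. Some items are not reported here, though counts include them. For each called member the 3 genes most like it in pattern are named, and genes overlapping or nearest within 100 kb. Alternatives were other filters, quantile normalization, mitochondrial genes left out, voom weights, added reads in proportion to depth, no trend, no preservation term and each profile left out; scaling to silent receptors was added after the data were seen.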

Additional observations from a re-analysis of the deposited data

Results flagged for a closer look

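Cldn16 in FFPE heart stood at 0.91, from 1 read, below the other 5 profiles of brain, heart and liver, which ranged from 2.12 to 2.80. The gap to the nearest of them was 0.641 of the whole range, past Dixon's 95% critical value of 0.625 for 6 values. It was the only flag among 16 groups of values tested, and chance flags about 1 in 20 such groups.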

How the results depend on the processing

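The 5 members called in kidney against the other organs kept their direction under all 17 alternatives, with folds of 1.99 to 3.49 (Umod), 1.87 to 2.59 (Egf), 1.71 to 3.14 (Slc12a1), 1.71 to 1.89 (Slc12a3) and 1.82 to 2.02 (Cldn10). Umod, Egf and Slc12a1 were called in 15 of the 17, Slc12a3 in 14 and Cldn10 in 9. No gene was called in any contrast without a trend in the variance, where the prior degrees of freedom were 2.85 and the smallest adjusted p for kidney was 0.179; the cause was not tested. Members called with 1 profile left out ranged from 0 to 5 of 8 against the other organs, 2 to 4 against brain, 0 to 5 against heart and 1 to 5 against liver; scaled to silent receptors, 3 passed against heart. Genes called in kidney against the others were 368, and 676 with quantile normalization, 701 with voom weights, 205 without the preservation term, 0 without a trend and 20 to 887 with 1 profile left out. Against brain they were 1012, and 1521 with voom weights, 634 without the preservation term, 648 scaled to silent receptors and 136 to 1783 with 1 profile left out. Against heart they were 714, 395 without the preservation term and 116 to 1449 with 1 profile left out. Against liver they were 1007, 1782 with voom weights, 639 without the preservation term and 202 to 1945 with 1 profile left out. FFPE against frozen called 154, 309 with voom weights and 23 to 112 with 1 profile left out, and none of the 8 members in any of these. The kidney FFPE effect against the other organs called 0 to 2 genes. Without mitochondrial genes and scaling factors the median of all genes for FFPE against frozen shifted to 0.11. No paired analysis was possible because the columns carry no replicate numbers. For that FFPE effect, voom weights were not run, and it cannot be fitted without a kidney profile. Genes with few reads, such as Cldn16, limit what depth can show.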
